A study of Mus musculus with 6 samples.

Results

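The mitochondrial ribosomal proteins are the nuclear-encoded proteins of the ribosome inside mitochondria. They were taken here as every gene of the deposited table whose Ensembl identifier maps to a protein-coding mouse symbol that starts with Mrpl or Mrps and a number. The rule found 77 genes among the 41214 genes of the table, 29 with an Mrps symbol (small subunit) and 48 with an Mrpl symbol (large subunit). GENCODE release M21 holds 78 such symbols, and Mrpl33, the other one, was not analysed here. All 77 passed the filter on low counts and none was at 0 in any library.

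Bulk RNA was measured in endothelial cells of embryonic mouse hearts, sorted for CD31 and green fluorescence, in 3 groups of 2 libraries that differ in Dll4, a ligand of the Notch receptors. All groups carried the Pdgfb-iCreERT2-IRES-EGFP transgene, in which the Pdgfb promoter, active in endothelium, drives Cre that tamoxifen switches on, together with a green fluorescent marker. Tamoxifen was given at E13.5 and hearts were taken at E14.5. The wt group (replicates 4 and 5) came from crosses without a Dll4flox allele, the het group (replicates 2 and 3, labelled Dll4+/-) kept 1 intact Dll4 allele, and the KO group (replicates 1 and 2, labelled Dll4-/-) had both alleles floxed. Litters of several females were collected, and nothing states whether a library is an embryo or a pool, so the p-values below measure only the spread between these libraries. The groups are limited to cells that express this transgene, taken 1 day after tamoxifen.

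The mitochondrial ribosome has a small subunit that reads the messenger RNA and a large subunit that joins amino acids. It translates the few messenger RNAs encoded by mitochondrial DNA, all of which specify subunits of the respiratory chain and ATP synthase, while its own proteins are made in the cytosol and imported. Some of these proteins descend from bacterial ribosomal proteins and others were added during mitochondrial evolution. Coronary endothelial cells that become arterial receive Dll4-Notch signals, and endothelial growth and metabolism are known to change with Notch activity.

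Library totals ran from 1537894 to 6501789 counts, highest in the KO libraries. Dll4 stood at 195 and 182 CPM (reads scaled to a common library total, with edgeR's TMM factors) in wt, 80.9 and 85.5 in het and 19.3 and 13.7 in KO, in the order of the labels. The KO libraries stood apart in makeup: Lars2, a mitochondrial leucyl-tRNA synthetase, took 16.3% to 17.1% of counts in wt and het libraries and 0.0572% and 0.0611% in KO, and mitochondrial ribosomal RNA 1.33% to 3.22% against 0.0954% and 0.108%. The noncoding 7SL RNA took 0.129% to 0.234% in wt and het and 0.00123% and 0.00233% in KO. These differences coincide with the KO group. A difference in how the libraries were made and one of genotype therefore cannot be told apart in any comparison with KO. The 8 endothelial markers summed to 5409 to 5696 CPM in wt, 5165 to 5429 in het and 4440 to 4665 in KO. Singly they went both ways between KO and wt, 5 positive and 3 negative, with a median log2 fold change of 0.05 (-2.29 to 0.77). The 10 cardiomyocyte markers summed to 92.7 to 111 CPM in wt, 161 to 213 in het and 45.3 to 50.2 in KO. The 9 mural and fibroblast markers summed to 60.6 to 108, 123 to 202 and 38.0 to 77.1. Of the 7 mural and fibroblast markers tested, 2 were positive and 5 negative between KO and wt (-1.41 to 3.74). The 6 macrophage and blood markers summed to 20.9 to 75, 59.1 to 197 and 6.93 to 27.9. Their part in the results below was not tested, and in bulk RNA a change in the mix of cells and a change of RNA per cell cannot be told apart.

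With so large a share held by Lars2 in wt and het, every difference here is relative to the bulk of the other genes. Under scaling by library size alone the median log2 fold change of all tested genes between KO and wt moves from -0.02 to 0.35, and that of the mitochondrial ribosomal proteins from -0.08 to 0.28. A change of scaling shifts all genes of a library alike, so the distance between the family and all genes stays at -0.07 by construction. The calls, however, turn. By library size alone 21 members were higher and 0 lower in KO than in wt, against 1 and 2 with TMM. Of all 10952 tested genes, 3878 were higher and 1034 lower by library size alone (44.9% called), against 1610 and 1899 with TMM (32.0%).

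With TMM scaling, the mitochondrial ribosomal proteins as a family stood at similar summed levels in all 3 genotypes. Their summed level was 3526 and 3544 CPM in wt, 3843 and 3339 in het and 3300 and 3405 in KO. Without Mrpl12, which is high in het replicate 2 alone, that library's sum was 3513. The het libraries lie on both sides of wt, and both KO libraries lie somewhat below wt. As a share of all deposited counts the order is the reverse, with 0.303% to 0.352% in wt and het and 0.392% and 0.404% in KO, the libraries with the low Lars2 share.

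**Figure D1:**
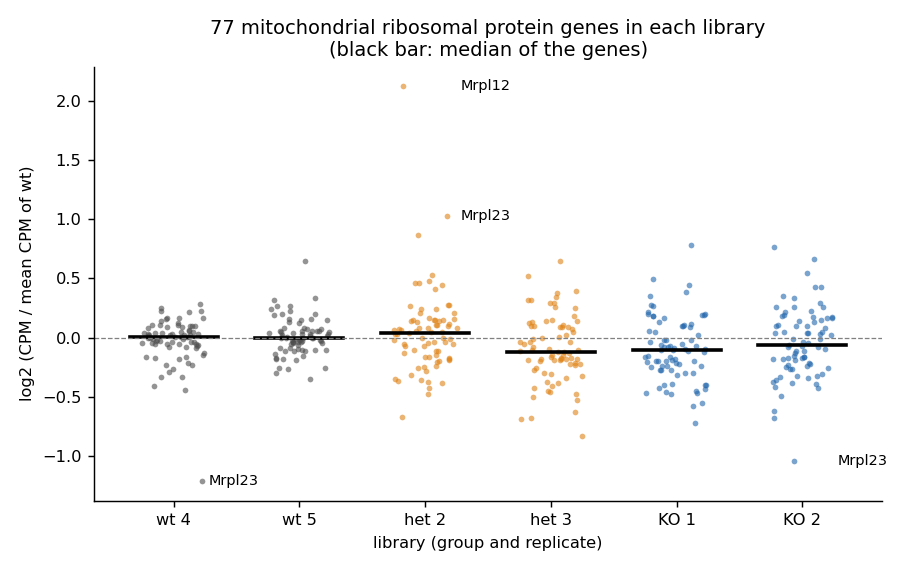
Each point is 1 of the 77 genes in 1 library, as the log2 ratio of its CPM to the mean CPM of the 2 wt libraries, and the black bars are medians over the genes. The medians lie between -0.12 (het replicate 3) and 0.04 (het replicate 2), and Mrpl12 and Mrpl23 are the points farthest from the rest.

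Within a group the 2 libraries differed by a median of 0.15 (log2 ratio without sign) over these genes in wt, 0.21 in het and 0.15 in KO, against 0.21, 0.25 and 0.18 over all tested genes. Mrpl23 (1.77 in wt and 0.89 in KO) and Mrpl12 (2.16 in het) had the widest gaps between replicates.

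Levels between genes were compared per kilobase of annotated transcript, as mean CPM per kilobase in wt. They spanned 5.28 to 179, a 34-fold range, with a median of 37.4. The middle 80% lay between 10.8 and 80.4. Small-subunit genes had a median of 36.9 and large-subunit genes one of 37.6.

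The 4 highest genes per kilobase in wt were Mrpl17 (179), a homologue of a bacterial large-subunit protein, Mrpl42 (126), a protein that bacteria lack, Mrps21 (125) and Mrpl20 (120), both of bacterial origin. Mrpl17 read 133 and 133 CPM in wt, 127 and 133 in het and 119 and 104 in KO. Both KO libraries lie below all others, and the gene did not pass the test against wt (log2 fold change -0.26, 95% interval -0.52 to 0.00, edgeR adjusted p 0.126). Mrpl20 differed more between its wt replicates, 48.2 and 70.0 CPM, than between groups.

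The 4 lowest were Mrpl1 (5.28), part of the mobile stalk beside the exit site, Mrpl47 (5.75), Mrps16 (6.80) and Mrpl19 (7.53), all with bacterial homologues. Their annotated transcripts have 2572 bases or more, long for this family, whose median transcript is 1056 bases against 2171 for all tested genes. In CPM, without the length, Mrpl19 stood at 36.3 and 39.1 in wt and 32.9 and 36.5 in KO, close to the family's middle. The order of levels per kilobase was nearly the same in all groups, with Spearman's rho of 0.97 between wt and het and 0.96 between wt and KO across the 77 genes, which share their lengths and libraries.

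Between KO and wt, 3 of the 77 genes changed: Mrpl50 rose, and Mrpl4 and Mrps24 fell. This is 3.90% of the family, where 32.0% of all 10952 tested genes were called at an adjusted p under 0.05 (14.7% higher and 17.3% lower). The log2 fold changes ran from -0.54 to 0.78 with a median of -0.08, and their SD over the family was 0.26 against 0.94 over all tested genes. For 74 of the 77 genes the 95% interval of the fold change lay wholly between 2-fold lower and 2-fold higher, which held for 53.9% of all tested genes. The other 3 are Mrpl50, Mrpl12 and Mrpl23.

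Of the 77, 29 had a positive and 48 a negative fold change, and 11 reached an unadjusted p under 0.05 (41.8% of all tested genes did). The groups did not overlap for 13 genes that were higher in KO and 30 that were lower, where the background of all tested genes is 33.2% and 34.5%. The calls by edgeR rest on 2 libraries a group: without wt replicate 4 no member was called, and without KO replicate 2 only Mrpl50 was.

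Mrpl50, a large-subunit protein that bacteria lack, read 30.3 and 31.5 CPM in wt, 33.3 and 26.4 in het and 53.2 and 52.4 in KO. Both KO libraries lie far above the other 4, which overlap each other. KO was 1.71-fold higher than wt (log2 fold change 0.78 ± 0.19 SE, edgeR adjusted p 0.00338) and 1.81-fold higher than het (0.85 ± 0.19 SE, adjusted p 0.00168). Without wt replicate 4 its adjusted p against wt was 0.0503, and without het replicate 3 that against het was 0.0531.

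Mrpl4, whose bacterial homologue lines the tunnel through which the new protein leaves, read 94.3 and 89.5 CPM in wt, 91.5 and 94.9 in het and 69.6 and 65.4 in KO. The wt and het values interleave and both KO values lie below them. KO was 1.36-fold lower than wt (log2 fold change -0.45 ± 0.14 SE, edgeR adjusted p 0.0174) and 1.38-fold lower than het (-0.47 ± 0.14 SE, adjusted p 0.0133). It is the fifth highest gene of the family per kilobase. The call against wt was lost in 7 of 16 alternative analyses.

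Mrps24, whose bacterial homologue lies at the entry of the messenger RNA channel, read 43.1 and 41.6 CPM in wt, 41.9 and 29.9 in het and 30.5 and 27.5 in KO. The het libraries span the gap, replicate 2 beside wt and replicate 3 beside KO. The gene overlaps the coding gene Urgcp on the same strand, so the division of reads in any shared part is uncertain. KO was 1.46-fold lower than wt (log2 fold change -0.54 ± 0.20 SE, edgeR adjusted p 0.0462), a call lost in 9 of 16 alternative analyses, and KO against het gave -0.26 (adjusted p 0.375).

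**Figure D2:**
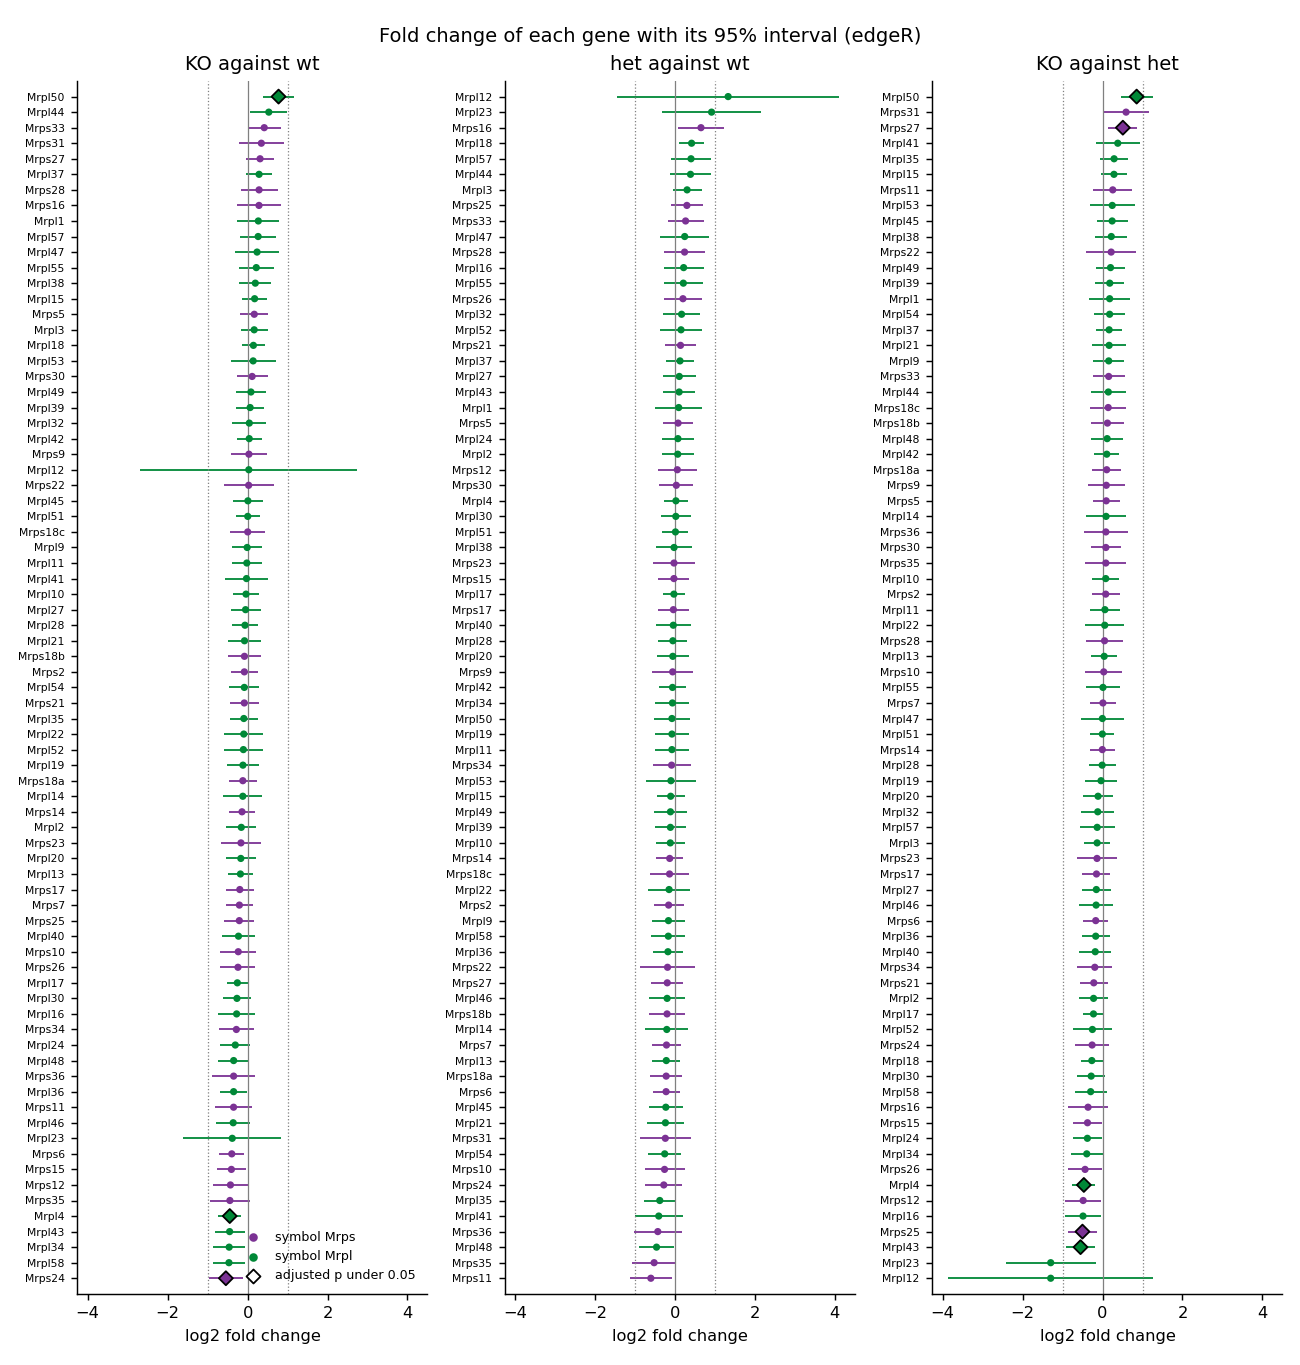
Each row is a gene, its point the log2 fold change and its bar the 95% interval, for KO against wt, het against wt and KO against het, with genes sorted in each panel, colour for the subunit in the symbol and diamonds for calls at an adjusted p under 0.05. Most bars cross 0 and stay within the dotted lines at 2-fold, and Mrpl50 tops the left and right panels.

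The KO-het comparison shares its KO libraries with the one above. Here 5 of 77 genes changed, 6.49% against 31.2% of all tested genes (13.9% higher and 17.2% lower): Mrpl50 and Mrps27 rose and Mrpl43, Mrps25 and Mrpl4 fell. The median log2 fold change was 0.01, against -0.02 over all tested genes. The groups did not overlap for 16 genes higher and 23 lower in KO, where 31.5% and 33.0% of all tested genes behaved so. For 73 of 77 the 95% interval stayed within 2-fold, and 12 had an unadjusted p under 0.05, which 41.0% of all tested genes had.

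Mrps27, a pentatricopeptide-repeat protein of the small subunit that bacteria lack, read 42.2 and 53.0 CPM in wt, 39.7 and 42.1 in het and 57.2 and 59.8 in KO. KO lies above all others, but by little above wt replicate 5. KO was 1.42-fold higher than het (log2 fold change 0.51 ± 0.17 SE, edgeR adjusted p 0.0308), and against wt it gave 0.31 (adjusted p 0.179).

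Mrpl43, a large-subunit protein that bacteria lack, read 46.1 and 44.8 CPM in wt, 47.5 and 49.7 in het and 30.9 and 35.8 in KO. KO is the lowest group without overlap. It was 1.47-fold lower than het (log2 fold change -0.55 ± 0.18 SE, edgeR adjusted p 0.0231), and against wt it gave -0.45 (adjusted p 0.0642). Its gene overlaps Twnk on the other strand, so reads of these 2 genes cannot be told apart by strand.

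Mrps25, a small-subunit protein that bacteria lack, read 49.9 and 42.9 CPM in wt, 63.9 and 52.5 in het and 40.4 and 40.6 in KO. The het libraries are the highest here and KO the lowest. The gene overlaps the coding gene Nr2c2 on the other strand, so reads in any shared part cannot be told apart without strand. KO was 1.42-fold lower than het (log2 fold change -0.50 ± 0.17 SE, edgeR adjusted p 0.0320), and against wt it gave -0.21 (adjusted p 0.409). Of the calls against het, Mrpl4 was lost in 5, Mrps27 in 6, Mrpl43 in 7 and Mrps25 in 9 of 16 alternative analyses.

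**Figure D3:**
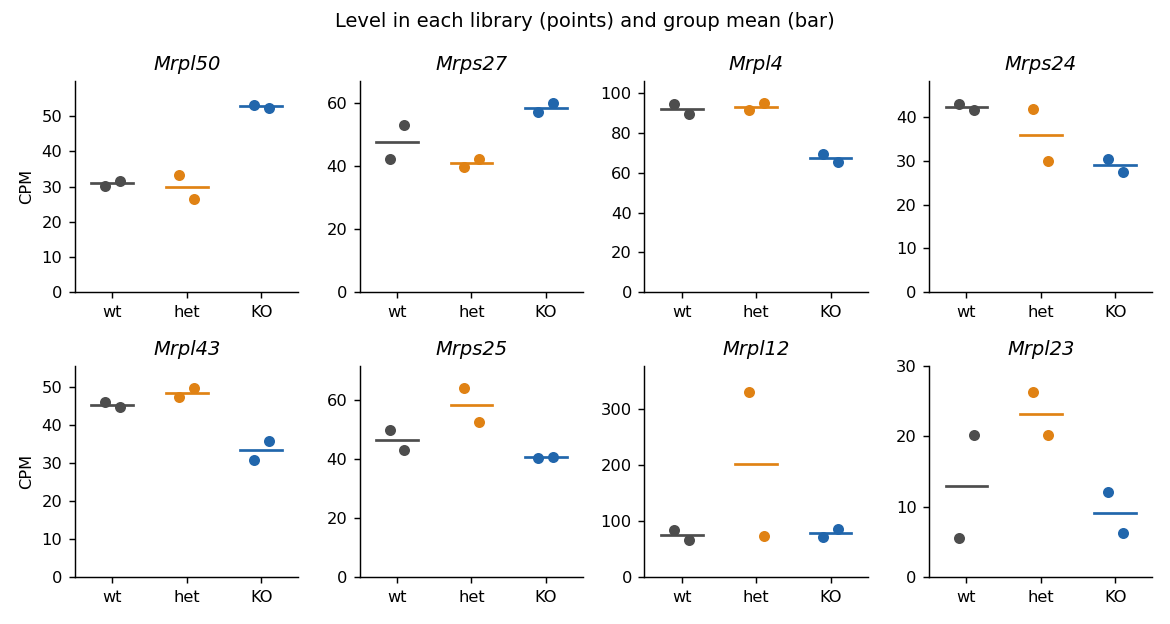
CPM of 8 genes in each library (points), with the mean of the 2 libraries of a group as a bar and axes from 0. Mrpl50 is at 53.2 and 52.4 in KO against 26.4 to 33.3 elsewhere, Mrpl4 at 69.6 and 65.4 against 89.5 to 94.9, and het replicate 2 of Mrpl12 stands alone at 331.

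Loss of 1 Dll4 allele left the family without a call. Between het and wt 0 of 77 genes passed in edgeR, where 0.173% of all tested genes did (0.128% higher and 0.0457% lower). An unadjusted p under 0.05 was reached by 4 members and by 8.15% of all tested genes. DESeq2 and limma-voom also called 0. The median log2 fold change was -0.06, against 0.01 over all tested genes. For 70 of the 77 genes the 95% interval stayed within 2-fold, against 69.9% of all tested genes. The groups did not overlap for 15 genes higher and 17 lower in het, beside a background of 19.2% and 18.8%.

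The 3 smallest p-values between het and wt belonged to Mrpl18, Mrps11 and Mrps16. Mrpl18, whose bacterial homologue sits in the central protuberance of the large subunit, read 76.8 and 76.9 CPM in wt, 104 and 101 in het and 87.7 and 82.1 in KO (het against wt, log2 fold change 0.41, 95% interval 0.11 to 0.72, edgeR adjusted p 0.383). The 3 groups do not overlap for this gene, with het the highest. Mrps11, a platform protein of the small subunit, read 31.6 and 27.7 CPM in wt, 21.3 and 18.4 in het and 24.1 and 22.6 in KO (het against wt -0.61, adjusted p 0.512). Mrps16, of bacterial origin and among the lowest of the family, read 20.5 and 15 CPM in wt, 31.9 and 25 in het and 20.1 and 23.5 in KO (het against wt 0.65, adjusted p 0.535). Mrps11 is lowest and Mrps16 highest in het.

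Mrpl12 forms the flexible stalk of the large subunit and also binds the mitochondrial RNA polymerase. It read 84.9 and 66.8 CPM in wt, 331 and 73.7 in het and 71.4 and 85.3 in KO. Het replicate 2 stands alone, on 466 counts, the highest count of the family in that library. The het-wt fold change (log2 1.33, 95% interval -1.45 to 4.10, edgeR adjusted p 0.789) therefore rests on 1 library: without het replicate 3 it became 2.11 with an adjusted p of 2.18e-06, and without het replicate 2 it was -0.06.

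Mrpl23, whose bacterial homologue sits at the tunnel exit, read 5.54 and 20.2 CPM in wt, 26.3 and 20.2 in het and 12 and 6.25 in KO. The wt replicates alone differ more than most genes do between groups. KO against het gave a log2 fold change of -1.30 (95% interval -2.42 to -0.17, edgeR adjusted p 0.0790), and 6 of 15 alternative analyses called it. A processed pseudogene, Mrpl23-ps1, is annotated, and the division of reads between such copies is uncertain, as it is for Mrpl48 and Mrps36.

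By subunit, the KO-wt median log2 fold change was -0.14 for the 29 small-subunit symbols (0 higher and 1 lower called) and -0.06 for the 48 large-subunit symbols (1 higher and 1 lower). Against het the medians were 0.05 and 0.00. By origin, the 43 genes with a bacterial homologue had a KO-wt median of -0.12, with 32 negative fold changes and 2 falls called, Mrpl4 and Mrps24. The 31 mitochondria-specific genes had a median of 0.00, with 15 negative and 1 rise called, Mrpl50. The calls against wt make 4.65% of the bacterial and 3.23% of the mitochondria-specific genes, against 32.0% of all tested genes. Of the 5 calls against het, 4 were mitochondria-specific (12.9% of that subgroup) and 1 of bacterial origin (2.33%), against 31.2% of all tested genes. These differences between subgroups were not tested. The remaining 3 genes, Mrpl55, Mrps28 and Mrps36, have an uncertain class and none was called.

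The 4 members of known separate role described next were not called by edgeR with TMM scaling. Mrpl58 was called against wt with the GC and length trend removed and without KO replicate 1, and Mrpl44 (KO against wt and het) and Mrpl45 (KO against het) with library size only. Mrpl44, which has a ribonuclease-like fold, read 28.1 and 20.2 CPM in wt, 33.3 and 31.3 in het and 32.9 and 38.4 in KO (KO against wt 0.53, edgeR adjusted p 0.0725). Mrpl58, a peptidyl-tRNA hydrolase that rescues stalled ribosomes, read 49.9 and 54.2 in wt, 51.8 and 42.1 in het and 42.3 and 32.4 in KO (-0.47, adjusted p 0.0648). Wt lies below the other groups for Mrpl44 and above KO for Mrpl58. Mrps12, a protein of the decoding centre, had -0.43 (adjusted p 0.138) on wt values of 34.5 and 48.5 and KO values of 27.8 and 33.1. Mrpl45, which ties the ribosome to the inner membrane, had 0.01 (95% interval -0.37 to 0.39).

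The 3 genes related to bacterial protein S18 stayed near wt: KO against wt was -0.12 for Mrps18a, which sits in the large subunit despite its symbol, -0.08 for Mrps18b and 0.00 for Mrps18c. All 3 intervals lay within 2-fold. Mrps30, also a large-subunit protein by structure, read 36.7 and 37.2 CPM in wt, 35.5 and 39.3 in het and 39.3 and 40.6 in KO, a 1.08-fold difference between KO and wt. Mrps36, since recognised as a subunit of the 2-oxoglutarate dehydrogenase complex, had -0.35 (95% interval -0.89 to 0.19).

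The ribosomal proteins of the cytosol gave another picture. Of 74 such genes 72 were tested, and between KO and wt 2 rose and 38 fell (55.6%, against 32.0% of all tested genes), with a median log2 fold change of -0.36. Rps4x, which fell most of the 72 (log2 fold change -1.16), read 702 and 779 CPM in wt and 315 and 347 in KO. Against het 2 rose and 54 fell (77.8%, against 31.2%), with a median of -0.58, and between het and wt 1 (Rps28) rose and 0 fell, with a median of 0.20. Their summed level was 24568 and 28233 CPM in wt, 31749 and 27880 in het and 19296 and 20056 in KO. All of these values are with TMM scaling. Library size alone moved the KO-wt median of all tested genes from -0.02 to 0.35, a shift about as large as this family's median. Cytosolic calls under that scaling were not counted, so the falls may depend on the scaling. The difference between the 2 families was not tested, and the cytosolic genes were measured on far more reads (median log2 CPM 8.26 against 5.47).

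**Figure D4:**
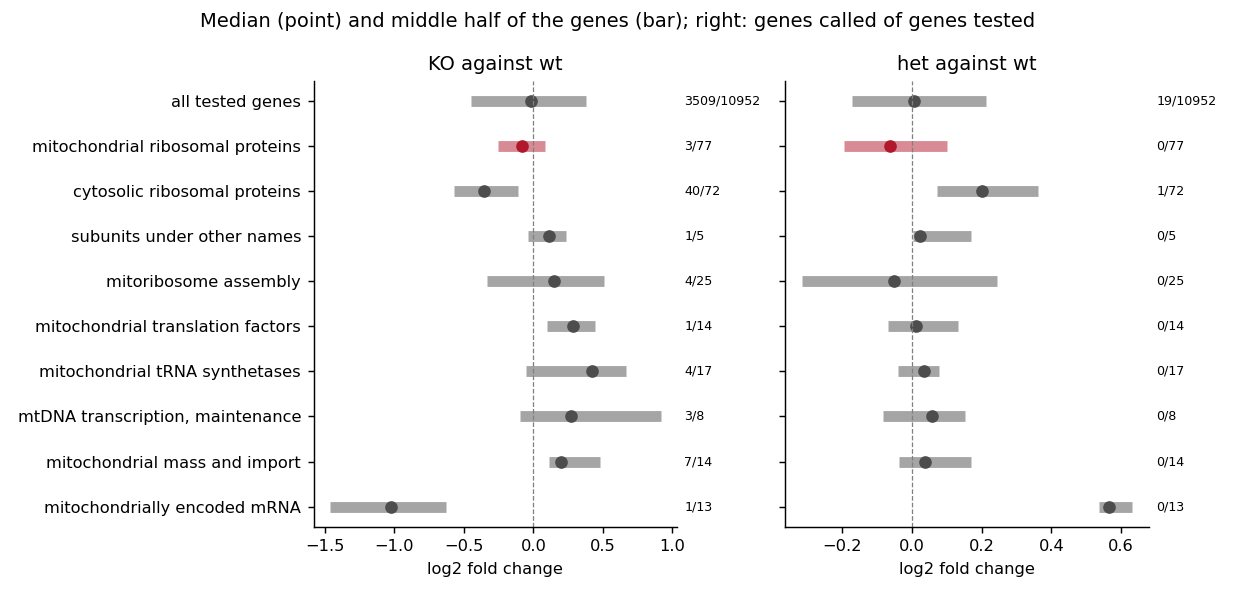
For each gene list, the point is the median log2 fold change of its tested genes and the bar runs from the lower to the upper quartile, for KO against wt (left) and het against wt (right, with a narrower axis), with the number of called and tested genes beside each. With TMM scaling, the mitochondrial ribosomal proteins lie near 0 in both panels with 3 and 0 calls, and the cytosolic ribosomal proteins at -0.36 with 40 calls and 0.20 with 1.

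Among 5 mitoribosome subunits that carry other names (Dap3, Ptcd3, Gadd45gip1, Aurkaip1, Chchd1), Ptcd3 rose in KO. This pentatricopeptide-repeat protein of the small subunit read 45.6 and 49.2 CPM in wt, 50.4 and 44.8 in het and 69.9 and 80.6 in KO (log2 fold change 0.67 ± 0.16 SE, edgeR adjusted p 0.00348). The other 4 lay between -0.13 and 0.23 and did not pass. Ptcd3 was thus the only call among the 5 between KO and wt, where 32.0% of all tested genes were called and 14.7% were called higher.

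Of 25 factors that assemble the mitoribosome or mature its RNA, 3 rose and 1 fell between KO and wt (background 32.0%). The risers were Dhx30, an RNA helicase (63.4 ± 7.58 CPM in wt and 114 ± 5.34 in KO, SD, n = 2), Fastkd2, which binds the large ribosomal RNA (19.7 ± 4.69 and 41.5 ± 2.51), and Rcc1l (19.8 ± 1.44 and 39.6 ± 2.26). Each was about 1.81 to 2.06-fold higher. Malsu1, which keeps the large subunit from joining too early, fell (25.3 ± 0.787 and 12.9 ± 4.49). Between het and wt 0 of these 25 passed in edgeR, and 0 reached an unadjusted p under 0.05.

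Of 14 translation factors, Gfm2, which recycles mitochondrial ribosomes, rose (21.8 ± 1.27 CPM in wt and 36.0 ± 0.653 in KO, edgeR adjusted p 0.0124). It was the only call, 7.14% of the list against 32.0% of all tested genes. The list's KO-wt median was 0.28, against -0.02 over all tested genes. Of 8 tested genes of mitochondrial DNA transcription and maintenance 3 rose, 37.5% against 32.0% of all tested genes, a share near the background: Polg, the replicating polymerase (58.8 ± 5.98 and 117 ± 8.40), Mgme1, a nuclease, and Twnk, the helicase. Of 17 mitochondrial aminoacyl-tRNA synthetases 4 were called between KO and wt (23.5%, against 32.0%). Among them Aars2 rose 2.71-fold and Nars2 2.25-fold. The counts assigned to Lars2 fell as described above, together with mitochondrial ribosomal RNA, and whether they come from Lars2 messenger RNA was not tested.

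Of 14 genes of mitochondrial mass and import 6 rose and 1 fell between KO and wt, where 14.7% of all tested genes rose and 17.3% fell. Hspa9, the chaperone that pulls proteins into the matrix, rose most (227 and 221 CPM in wt, 263 and 237 in het, 490 and 510 in KO, 2.23-fold, edgeR adjusted p 1.96e-08). Cs, citrate synthase, rose 1.51-fold and Hspd1, the matrix chaperonin, 1.35-fold, and Vdac2, a pore of the outer membrane, fell 1.21-fold. These genes are more abundant than the ribosomal ones.

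The messenger RNAs that the mitoribosome translates, the 13 encoded by mitochondrial DNA, had a KO-wt median of -1.02, with all 13 negative and only mt-Nd6 called (123 and 166 CPM in wt, 149 and 259 in het, 30.8 and 27.5 in KO). Between het and wt all 13 were positive, with a median of 0.57 and 0 called by edgeR, also at an unadjusted p under 0.05. For 0 of the 13 did both het libraries lie above both wt libraries, which held for 19.2% of all tested genes. The KO-wt changes of the 13 ran from -2.29 to -0.10, and 7.69% of them were called, against 32.0% of all tested genes. Together they took 1.18% and 1.78% of counts in wt, 1.48% and 2.82% in het and 1.03% and 0.875% in KO. Het replicate 2 thus lies between the wt libraries, and only het replicate 3 lies above them.

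Many of these genes share a start region with a neighbour on the other strand. Of the 77, 33 have a coding gene head to head within 1000 bases, 15 of them with overlapping ends, and Mrps11 and Mrpl46 form such a pair with each other. Of the 31 neighbours outside the family 26 were tested; 5 rose and 1 fell between KO and wt (background 32.0%). None of the 6 family members beside them was called in that comparison, in which 3.90% of the whole family was called.

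The stretches between the annotated exons of 4 such pairs are shown because the genes on their 2 sides gave different calls, against wt for Mrpl50, Mrpl43 and Mrpl57 and against het for Mrps27. They are from RefSeq's promoter table on build GRCm38.p6, 5′ to 3′ on the strand of the family member, and end at or within 10 bases of its RefSeq start site. The outermost annotated start of Twnk lies inside Mrpl43, so the stretch of that pair lies between exons but not between the 2 gene starts. Capitals mark exact matches to the letters CCGGAAG on either strand, a form of the site that ETS factors bind. Other forms of that site were not searched for, so a stretch without capitals may still hold such a site.
Mrpl50 to Zfp189, chr4:49521094-49521175, minus strand: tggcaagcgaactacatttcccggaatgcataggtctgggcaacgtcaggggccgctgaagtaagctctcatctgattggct
Mrps27 to Ptcd2, chr13:99344706-99344785, plus strand: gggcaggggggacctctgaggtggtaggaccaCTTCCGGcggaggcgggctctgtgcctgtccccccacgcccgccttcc
Mrpl43 to Twnk, chr19:45006443-45006557, minus strand: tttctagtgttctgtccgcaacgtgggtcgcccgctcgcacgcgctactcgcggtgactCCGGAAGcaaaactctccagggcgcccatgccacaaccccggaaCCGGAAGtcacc
Mrpl57 to Ska3, chr14:57826186-57826233, plus strand: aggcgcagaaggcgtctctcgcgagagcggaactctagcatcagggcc

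Across the Mrpl50 stretch, 82 bases long, Mrpl50 rose in KO while Zfp189, a zinc-finger gene, read 10.2 and 16.4 CPM in wt and 11.6 and 11.0 in KO (edgeR adjusted p 0.707). Across the 80 bases beside Mrps27, Ptcd2 read 38.4 and 35.3 CPM in wt, 35.5 and 36.5 in het and 41.4 and 44.1 in KO (KO against het, adjusted p 0.345). Neither neighbour passed a test.

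Across the 48 bases beside Mrpl57, Ska3, a kinetochore protein, rose from 16.2 and 21.4 CPM in wt to 49.3 and 39.5 in KO (log2 fold change 1.27, edgeR adjusted p 2.57e-04), while Mrpl57 read 26.9 and 23.3 in wt and 32.1 and 28.6 in KO (0.26, adjusted p 0.386). Twnk rose from 9.38 and 11.3 CPM to 22.4 and 15.9 (0.91, adjusted p 0.0332) beside Mrpl43, whose KO values are its lowest. Ncapd2, a condensin subunit, rose from 85.7 and 92.0 CPM to 187 and 171 (1.01) beside Mrpl51, which had 0.00 (95% interval -0.30 to 0.31). These 3 pairs were picked because the neighbour was called, and in each the family member was not called against wt.

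Mtbp rose from 17.5 and 15 CPM in wt to 46.1 and 36.7 in KO (1.36) beside Mrpl13, which had -0.18. Wdfy1 rose in both genotypes, from 11.5 and 13.9 CPM in wt to 62.4 and 50.1 in het and 55.5 and 48.0 in KO (het against wt 2.14, edgeR adjusted p 1.08e-04), beside Mrpl44, which had 0.39 in het and 0.53 in KO without a call. Tcp1, a cytosolic chaperonin subunit, fell from 538 and 553 CPM to 396 and 405 in KO (-0.44) beside Mrpl18, which had 0.15. Mtbp, Tcp1, Twnk and Wdfy1 overlap their partner, so reads in the shared part cannot be told apart without strand.

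**Figure D5:**
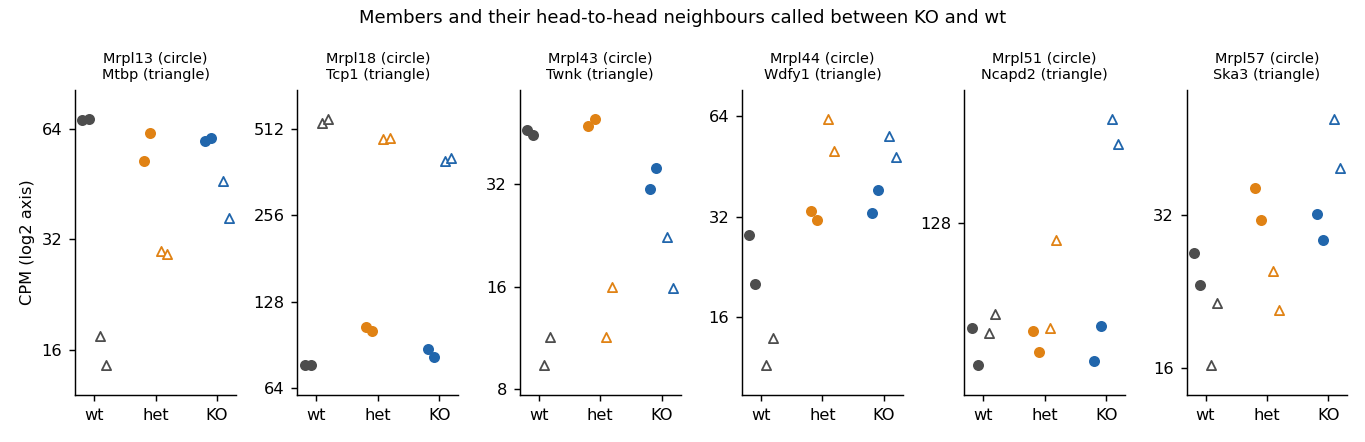
CPM on log2 axes, which differ between panels, of 6 family members (filled circles) and their head-to-head neighbours (open triangles) in each library of wt, het and KO. Only pairs whose neighbour was called between KO and wt are shown, so the triangles move in all 6 panels by selection. Ska3, for example, went from 16.2 and 21.4 to 49.3 and 39.5, while the circles of Mrpl57 stay between 23.3 and 36.2.

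Motifs of known regulators were counted in the start regions. Of 68 members with an entry in the table, 25 (36.8%) have CCGGAAG on either strand in the 300 bases around the start, against 21.9% of tested genes and 9.93% of all genes there. TGCGCA, a half-site of the respiratory regulator Nrf1, was in 21 (30.9%), against 17.1% and 8.79%. CACGTG, the E-box that Myc and others bind, was in 5 (7.35%), against 12% of tested genes and 8.09% of all. None of the 3 motifs contains another, and these counts are a description with no test.

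The genes are spread over 17 chromosomes, with 11 on chromosome 11 and 8 on chromosome 17. On GRCm38 the genes called in KO lie at chr4:49512596-49521093 (Mrpl50), chr9:21002738-21008839 (Mrpl4), chr11:5703983-5715680 (Mrps24), chr13:99344786-99415562 (Mrps27), chr19:45004829-45006442 (Mrpl43) and chr6:92169525-92184033 (Mrps25). Across the 77 genes, the KO-wt fold change had a Spearman's rho of 0.30 with transcript length and -0.37 with GC content, against 0.08 and -0.03 across all tested genes. Removing each library's trend with GC content and length moved the family's median from -0.08 to -0.01. Then 2 genes were called, Mrpl50 and, newly, Mrpl58, where 31.4% of all tested genes were. Mrpl4 and Mrps24 were no longer called.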

How the data were processed

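The authors deposited 1 table of expected counts, reads per gene as estimated by RSEM, which need not be whole. Per the submitters' processing notes, the tools were CASAVA, cutadapt and RSEM and the build was GRCm38, with no versions given. The table's name refers to an Ensembl release. RNA was amplified with SMART-Seq v4 and made into Nextera XT libraries, per the labels' protocols, and the labels call the reads single in 1 place and paired in another. Identifiers were matched to GENCODE M21 (97.88% of 41214).

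Expected counts were rounded. In R 4.3.3, edgeR 4.0.16 was run with TMM factors, filterByExpr (minimum count 10), a robust quasi-likelihood fit of all 6 libraries and two-sided quasi-likelihood F tests, with Benjamini-Hochberg adjustment over 10952 genes and calls under 0.05. Intervals are 95% and come from that fit. CPM use TMM-scaled totals. Transcript length is the median over a gene's protein-coding transcripts. The script was tested on simulated data. DESeq2 1.42.0 and limma 3.58.1 served as alternatives.

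The members and lists were chosen with earlier results of these data known. Named were called members, for het against wt the 3 smallest p-values, the 4 highest and 4 lowest per kilobase, a list of members with known roles, and up to 3 genes per related list. Mrpl23, Mrps28, Mrpl55, the head-to-head pairs, Malsu1, Nars2, Vdac2, Rps4x and Rps28 were named after their values were seen. Counts in a library ran from 13.49 to 922 over the members, which limits the precision of the lowest. The files hold no column of other samples.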

Additional observations from a re-analysis of the deposited data

How the results depend on the processing

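No paired analysis was possible because the groups compared share fewer than 2 replicate numbers. Against 3 members called between KO and wt, scaling by library size only called 21 (all higher) and 44.9% of all tested genes. DESeq2 called 1 member and 22.7% of all tested genes. With at least 50 counts in every library, a filter that removes Mrpl50, 5 of 49 members and 48.3% of all tested genes were called. Against 5 called between KO and het, 27 were called with library size only (45.3% of all tested genes) and 1 with DESeq2 (21.7%). Leaving out 1 library in turn gave 0 to 4 for KO against wt (0 without wt replicate 4), 0 to 1 for het against wt (Mrpl12, without het replicate 3) and 2 to 5 for KO against het (2 without either het replicate or KO replicate 2). The other alternatives kept these counts within 1.5 times, and no called member reversed. DESeq2, limma-voom and the scaling without Lars2 and mitochondrial genes called 0 between het and wt.

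The family's median log2 fold change turned positive for KO against wt only with library size alone (0.28), and for het against wt only without het replicate 3 (0.04). For KO against het, where it was 0.01, it turned negative under 5 alternatives: -0.01 with at least 50 counts, -0.02 with thinned counts, -0.02 without the GC and length trend, -0.11 without het replicate 3 and -0.04 without KO replicate 2. The cause was not tested. Mrpl50 was called under all alternatives that could test it except without wt replicate 4 (against wt) and without het replicate 3 (against het). Dll4 was lost between het and wt without wt replicate 4 (adjusted p 0.0868). Where an arm is left with 1 library, its spread is assumed to be that of the other groups. With a median of 60 counts a member in the shallowest library, smaller differences of the lower members may not have been detectable.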
